A study of Mus musculus with 6 samples.

Results

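The genes described here encode the proteins of the mitochondrial ribosome. They were taken by name and annotation: every gene of the deposited table that GENCODE M21 lists as protein-coding and whose symbol starts with Mrpl or Mrps followed by a digit, which gave 78 of the 55401 genes in the table. The rule used no expression value, but the family was taken up with results of this same comparison known. The counts and fold changes below are therefore a description of these genes, and no test was made of the family as a whole. RNA was sequenced in bulk from RAW264.7, a macrophage-like line from mouse of WT genotype, grown in DMEM with 10% fetal bovine serum. There were 3 libraries from cells given PBS, the control, and 3 from cells given 6.25 µg/ml of MoS2, molybdenum disulfide, a layered metal sulfide. How long the cells were treated is not stated in the sources used here. The labels do not say whether the replicates were separate cultures, and p-values then cover only the spread between these libraries, which may be technical.

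The mitochondrial ribosome is made of RNA from the mitochondrial genome and proteins from nuclear genes, which are made in the cytosol and imported. It translates a small set of mRNAs, all for core subunits of the respiratory chain complexes and ATP synthase, so its output has to be matched by nuclear-encoded subunits of the same complexes. Its large subunit joins amino acids and its small subunit reads the mRNA. Many of its proteins have a bacterial homolog, while the others have no counterpart in bacteria. The symbols Mrpl and Mrps stand for the large and the small subunit, with exceptions named below.

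Total counts per library ran from 15767618 to 18412762. TMM factors, which correct library totals for a shift in composition, were 1.305 to 1.31 in the PBS libraries and 0.743 to 0.783 in the MoS2 libraries. Because of that gap, scaling by library totals alone lowers every log2 fold change, by 0.77 at the median of the 12972 tested genes, and the main counts are given on both scales. Summed over 9 macrophage markers, none of which was at 0 in all libraries, the level was 7374 to 7539 CPM (library-scaled read counts) with PBS and 4999.5 to 5240.8 CPM with MoS2. Lyz2 (3624 ± 142 to 1976 ± 67.0 CPM) and Csf1r (1909 ± 64.6 to 513 ± 15.1 CPM; SD, n = 3) carried that difference, and with Fcgr1 they were the 3 markers called lower. Cd68 and Itgam were called higher, with log2 fold changes of 1.09 and 1.47, Adgre1, Cd14 and Ptprc were not called, and Mertk was too low to test. The marker lists of other cell types summed to at most 0.878 CPM in any library. Of these markers, 2 of 4 for T cells, 2 of 3 for B cells and 2 of 4 for epithelial cells were at 0 in all libraries, while none of the 4 fibroblast or 3 endothelial markers was at 0 throughout. In bulk RNA, fewer cells of a type and less RNA per cell cannot be told apart. The part that these marker differences had in the results was not tested.

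Most mitochondrial ribosomal protein genes had higher levels in cells given MoS2 than in cells given PBS. Of the 78, 77 passed the filter on low counts, 70 were called higher, 4 lower (Mrps2, Mrps12, Mrpl36 and Mrpl10), and 3 were not called (Mrpl43, Mrpl3 and Mrpl51). The calls come from edgeR's quasi-likelihood test at an adjusted p under 0.05 over all tested genes. By the same rule 38.3% of all tested genes were called higher and 42.4% lower. The median log2 fold change of the 77 members was 1.06, with quartiles of 0.55 and 1.25, beside a median of -0.08 over all tested genes. A log2 fold change of at least 1 and a call of higher were found together for 40 members, and for 19.5% of all tested genes. Every MoS2 library lay above every PBS library for 68 members, against 38.8% of tested genes, and below for 4, against 43.1%. The groups overlapped for Mrps27 and Mrpl17, which were called higher (0.37 and 0.30, but lower at -0.40 and -0.47 with library totals), and for the 3 members that were not called.

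With scaling by library totals alone, 40 members were called higher and 21 lower, beside 18% and 67.7% of all tested genes. Of the 70 members that rose with TMM scaling, 40 were also higher with library totals, 16 were not called and 14 were called lower. The medians with library totals were 0.29 for the members and -0.85 for all tested genes. A change of scaling shifts all genes by nearly the same amount, so the distance between these medians is kept by construction. With a smooth trend on length and GC content taken out of each library, 59 members were called higher and 7 lower, beside 40.2% and 40% of all tested genes, with a median of 0.70. The sign turned from positive to negative in 8 members, of which Mrpl55 (-0.31), Mrpl2 (-0.21) and Mrpl43 (-0.26) were then called lower. The members' exons were shorter than those of the tested genes, with a median exonic length of 2533 bases against 4072 bases, while the median GC content was 49.7% against 49.5%. The 4 lower calls fell to 2 without MoS2 replicate 1, as Mrpl10 and Mrpl36 were then not called.

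**Figure D1:**
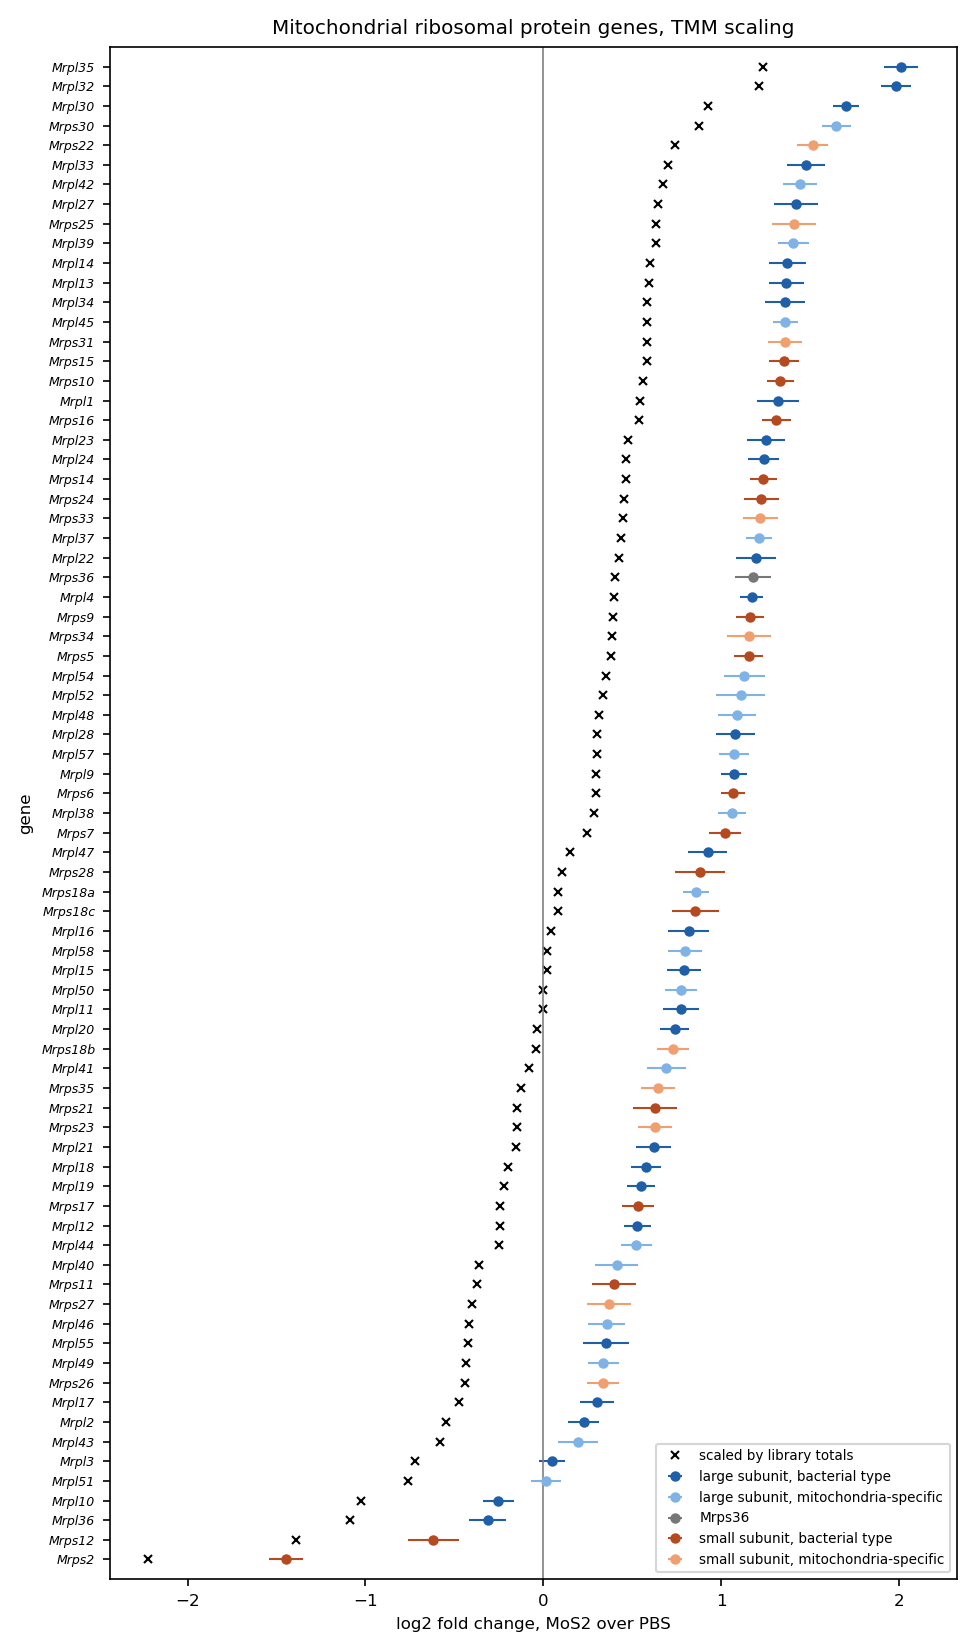
Log2 fold change, MoS2 over PBS, of each of the 77 tested mitochondrial ribosomal protein genes with TMM scaling (points, coloured by structural group; bars are ± the standard error) and with library totals alone (crosses, no error shown). With TMM 73 points lie above 0, from Mrpl51 at 0.01 to Mrpl35 at 2.01, and the crosses sit about 0.77 lower, so that those of 24 members with a positive TMM value lie below 0.

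As a share of all counts the family took 0.313% ± 0.0180 with PBS and 0.355% ± 0.00903 with MoS2 (SD, n = 3). The lowest MoS2 library, at 0.347%, was above the highest PBS library, at 0.330%. On the TMM scale the summed level was 2398 ± 142 CPM with PBS and 4654 ± 243 CPM with MoS2 (SD, n = 3). Within each group, the same libraries tended to hold the extremes. The first PBS library held the highest level of the PBS group for 50 of the 77 members, and the third the lowest for 49. With MoS2, the third library was the highest for 51 and the second the lowest for 47. The spread between replicates stayed small, with a median coefficient of variation of 9.11% with PBS and 6.94% with MoS2.

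Among the members with the largest rises, Mrpl35, a large-subunit protein of bacterial type, had 21.2, 19.9 and 17.5 CPM in the PBS libraries and 74.9, 73.0 and 88.4 CPM in the MoS2 libraries. Its lowest MoS2 library was far above its highest PBS library, with a log2 fold change of 2.01 ± 0.10 (SE; adjusted p = 2.9e-10, edgeR). Mrpl32, which in yeast and mouse is cut by the m-AAA protease of the inner membrane before it joins the large subunit, had 16.0, 15.5 and 15.1 CPM with PBS and 62.9, 57.1 and 64.3 CPM with MoS2. The groups were again far apart, with a log2 fold change of 1.98 ± 0.08 (SE; adjusted p = 7.4e-11, edgeR). With library totals alone the log2 fold changes of Mrpl35 and Mrpl32 were 1.24 and 1.21, and both were still called higher.

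The next members in order of log2 fold change were a pair of large-subunit genes, Mrpl30 and Mrps30. Mrpl30, of bacterial type, had 40.8, 38.2 and 35.4 CPM with PBS and 126, 118 and 129 CPM with MoS2, a log2 fold change of 1.70 ± 0.07 (SE; adjusted p = 1e-10, edgeR). Mrps30 is named for the small subunit but its protein sits in the central protuberance of the large one. It had 23.9, 21.4 and 25.3 CPM with PBS and 76.3, 70.4 and 74.4 CPM with MoS2, a log2 fold change of 1.65 ± 0.08 (SE; adjusted p = 3.9e-10, edgeR). Mrps22, a small-subunit protein without a bacterial counterpart, had 15, 15.4 and 16.8 CPM with PBS and 44.0, 43.2 and 47.5 CPM with MoS2, a log2 fold change of 1.51. Mrpl33, of bacterial type, had 32.3, 23.0 and 26.5 CPM with PBS and 70.4, 76.0 and 81.2 CPM with MoS2, a log2 fold change of 1.48. In none of these genes did the groups overlap, and with library totals the log2 fold changes of the 4 were 0.70 to 0.93, all called higher.

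At the other end, Mrps2 fell more than any other member. Its protein is the homolog of bacterial S2 and lies on the small subunit. Mrps2 (chr2:28468066-28471178, GRCm38) had 43.5, 43.0 and 40.9 CPM with PBS and 14.2, 17.6 and 14.9 CPM with MoS2. No MoS2 library came near the lowest PBS library, and the log2 fold change was -1.45 ± 0.10 (SE; adjusted p = 6.5e-09, edgeR), or -2.22 with library totals. Mrps12, the homolog of bacterial S12 at the decoding centre, had 10.2, 10.0 and 9.53 CPM with PBS and 7.27, 5.59 and 6.51 CPM with MoS2, without overlap. Its log2 fold change was -0.62 ± 0.14 (SE; adjusted p = 0.0013, edgeR). Mrps2 and Mrps12 were the members called lower in every alternative setting tried.

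Mrpl36 and Mrpl10, both large-subunit proteins of bacterial type, fell by less. Mrpl36 had 31.7, 29.7 and 25.8 CPM with PBS and 21.9, 23.0 and 25.2 CPM with MoS2. Its groups were separated by a narrow gap, between 25.2 and 25.8 CPM, and its log2 fold change was -0.31 ± 0.10 (SE; adjusted p = 0.011, edgeR). Mrpl10, which anchors the stalk, had 38.2, 33.2 and 36.1 CPM with PBS and 29.1, 29.3 and 31.9 CPM with MoS2. Its log2 fold change was -0.25 ± 0.09 (SE; adjusted p = 0.016, edgeR), and DESeq2 did not call it (adjusted p = 0.066).

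The 3 members that were not called had overlapping groups. Mrpl3, the homolog of bacterial L3 near the peptidyl transferase centre, had 54.3, 54.2 and 50.01 CPM with PBS and 52.5, 55.0 and 56.7 CPM with MoS2, a log2 fold change of 0.05 ± 0.07 (SE; adjusted p = 0.53, edgeR). Mrpl51, a mitochondria-specific protein, had 32.9, 31.4 and 33.9 CPM with PBS and 36.1, 31.0 and 32.2 CPM with MoS2, a log2 fold change of 0.01 ± 0.09 (SE; adjusted p = 0.88, edgeR). Mrpl43, also mitochondria-specific, had 24.9, 20.6 and 21.7 CPM with PBS and 23.5, 24.1 and 29.3 CPM with MoS2, a log2 fold change of 0.19 ± 0.11 (SE; adjusted p = 0.12, edgeR). These values are on the TMM scale, and with library totals the log2 fold changes of the same 3 genes were -0.72, -0.76 and -0.58. Without PBS replicate 1 Mrpl43 was called higher, at 0.27 (edgeR adjusted p = 0.030). It was lower, at -0.26, after removal of the trend on length and GC content.

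**Figure D2:**
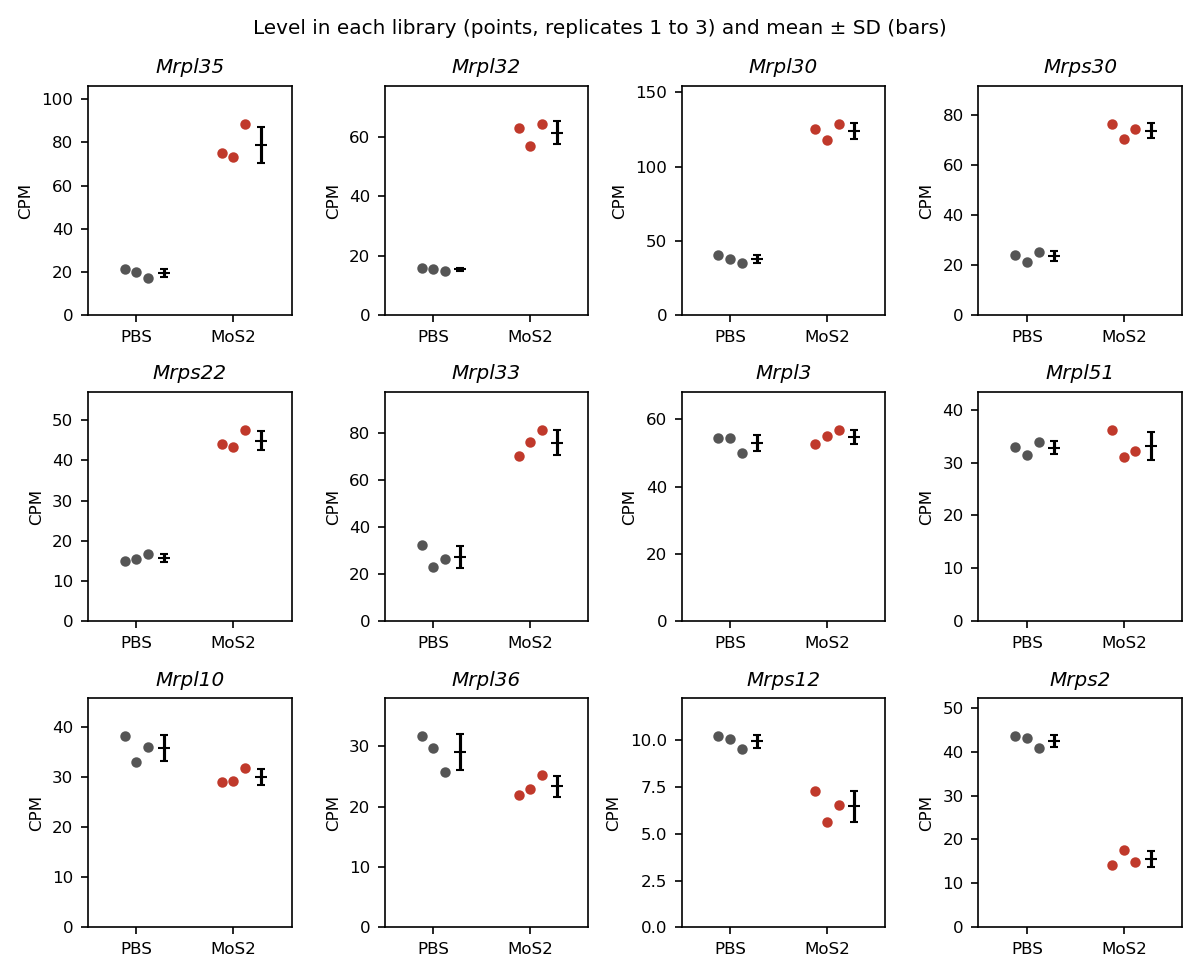
CPM (TMM scale, linear axes from 0) of the 6 members with the highest and the 6 with the lowest log2 fold change in the 3 PBS libraries (grey points) and the 3 MoS2 libraries (red points), with the mean ± SD as a bar. The groups are far apart for Mrpl35 to Mrpl33, overlap for Mrpl3 and Mrpl51, and are reversed for Mrpl10, Mrpl36, Mrps12 and Mrps2, where all MoS2 points lie under the PBS points.

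The start regions of these genes were read from RefSeq promoter windows on GRCm38.p6, each with 250 bases before and 50 after the RefSeq start, and 69 of the 78 members had one. For some members this start lies far from the outermost annotated one, by 17016 bases for Mrpl33. The 6 stretches below lie just before genes with a rise (Mrps22, Mrpl52, Mrpl30), a fall (Mrps2, Mrps12) and no call (Mrpl43). They hold only bases outside annotated exons, written 5′ to 3′ on the gene's strand. Capitals mark matches, on either strand, to CCGGAAG (the core bound by ETS factors such as GABPA), the palindrome of NRF1, ATGGCGGC (YY1) or CCAAT (NF-Y). The coordinates are chr9:98601680-98601929 on the minus strand for Mrps22, chr14:54426659-54426908 on the plus strand for Mrpl52, chr1:37890412-37890476 on the plus strand for Mrpl30, chr19:45006443-45006557 on the minus strand for Mrpl43, chr7:28741822-28741991 on the minus strand for Mrps12, and chr2:28467816-28468065 on the plus strand for Mrps2.
Mrps22: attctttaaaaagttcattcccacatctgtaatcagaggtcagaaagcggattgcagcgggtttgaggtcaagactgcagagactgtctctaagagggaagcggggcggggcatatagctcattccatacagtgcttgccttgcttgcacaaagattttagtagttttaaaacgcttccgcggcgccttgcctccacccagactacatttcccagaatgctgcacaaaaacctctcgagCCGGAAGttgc
Mrpl52: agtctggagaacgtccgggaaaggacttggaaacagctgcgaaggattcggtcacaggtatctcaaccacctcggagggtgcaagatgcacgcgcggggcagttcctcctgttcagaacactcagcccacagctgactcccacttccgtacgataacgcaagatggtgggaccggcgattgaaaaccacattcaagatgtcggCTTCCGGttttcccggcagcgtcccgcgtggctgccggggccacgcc
Mrpl30: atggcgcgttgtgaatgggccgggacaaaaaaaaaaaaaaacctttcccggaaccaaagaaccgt
Mrpl43: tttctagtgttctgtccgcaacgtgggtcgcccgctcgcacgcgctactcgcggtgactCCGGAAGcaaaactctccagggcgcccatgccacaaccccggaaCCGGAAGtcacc
Mrps12: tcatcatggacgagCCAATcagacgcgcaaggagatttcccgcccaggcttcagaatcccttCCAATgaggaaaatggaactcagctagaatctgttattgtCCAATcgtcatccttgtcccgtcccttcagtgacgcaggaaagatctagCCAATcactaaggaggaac
Mrps2: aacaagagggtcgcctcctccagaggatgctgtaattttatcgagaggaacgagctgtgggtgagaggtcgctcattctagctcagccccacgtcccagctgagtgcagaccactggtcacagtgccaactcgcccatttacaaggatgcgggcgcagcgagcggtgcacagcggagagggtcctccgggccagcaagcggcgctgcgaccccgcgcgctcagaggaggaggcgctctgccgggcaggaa

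The Mrpl43 stretch holds 2 copies of CCGGAAG and the Mrps22 and Mrpl52 stretches 1 each, the Mrps12 stretch holds 4 copies of CCAAT, and the Mrpl30 and Mrps2 stretches hold none of the 4 motifs. In the whole 300-base windows, CCGGAAG was found in 24 of 69 members, or 34.8%, against 12.3% of 16511 protein-coding genes and 19.9% of the tested ones. ATGGCGGC was found in 12 members, or 17.4%, against 3.31% and 5.63%. The NRF1 palindrome was found in 3 members, or 4.35%, against 1.38% and 2.29%. The other motifs are given in the same order, members against all and tested genes. CCAAT was found in 39.1% against 38.8% and 39.6%, and GGGCGG (SP1) in 49.3% against 48.2% and 65.6%. CACGTG (the E-box) was found in 7.25% against 8.07% and 10.4%, AAGGTCA (bound by ERR receptors) in 5.80% against 3.91% and 2.95%, and TATAAA in 5.80% against 12.9% and 6.52%. Searches covered both strands, 2 motifs shared bases in 2 member windows, and 7 members had none of the 8 motifs. The median log2 fold change was 0.73 for the tested members with CCGGAAG and 1.09 for those without, and 1.154 and 0.92 for those with and without ATGGCGGC. All these medians are on the TMM scale and given as a description. Mrpl53, whose window holds both motifs, was not tested and is in none of them. A match says only that the letters are there.

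Grouped by structure, the rises covered both subunits and both classes of origin. Of 30 large-subunit proteins with a bacterial homolog, 27 were higher and 2 lower, with a median log2 fold change of 0.997. Of 21 mitochondria-specific large-subunit proteins 20 were tested, 18 were higher and none was lower, with a median of 0.96. Of the 16 bacterial-type proteins of the small subunit 14 were higher and 2 lower, with a median of 1.04, and all 10 mitochondria-specific ones were higher, with a median of 0.94. All 4 lower calls were thus on members with a bacterial homolog. With library totals the counts of higher and lower were 15 and 9, 10 and 6, 9 and 4, and 5 and 2 in the same order. Beside these groups, 38.3% of all tested genes were higher and 42.4% lower with TMM. With library totals those shares were 18% and 67.7%. Mrps36, whose protein is now known as a part of the alpha-ketoglutarate dehydrogenase complex and not of the ribosome, was also higher, with a log2 fold change of 1.18.

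The stalk of the large subunit recruits the translation factors, and its members did not share a direction. Mrpl12, whose protein forms the mobile arms of the stalk, had 78.2, 69.9 and 64.9 CPM with PBS and 102, 97.9 and 108 CPM with MoS2. Its log2 fold change was 0.53 ± 0.08 (SE; adjusted p = 2.4e-05, edgeR), but -0.25 with library totals. Mrpl11, at the base of the stalk, had 22.0, 19.6 and 18.7 CPM with PBS and 34.7, 30.8 and 37.7 CPM with MoS2. This was a log2 fold change of 0.77 ± 0.10 (SE; adjusted p = 7.6e-06, edgeR), and 0.00 with library totals. Mrpl54 had 10.7, 13.2 and 12.7 CPM with PBS and 28.3, 23.7 and 27.9 CPM with MoS2, a log2 fold change of 1.13, and was called higher on both scales, unlike Mrpl12 and Mrpl11. Mrpl10 was the lower one. Mrpl53, the fifth, had 0 counts in all 6 libraries and was not tested. Of its exon bases, 695 or 88.0% also belong to Gm42688 on the same strand, which itself had only 128 counts, so the level of Mrpl53 could not be read from this table.

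Around the exit tunnel, where the new chain leaves towards the inner membrane, all 6 members listed for this site were higher. They ran from 0.30 for Mrpl17 to 1.36 for Mrpl45, which tethers the ribosome to the membrane, with a median of 1.22. Mrpl4, in the tunnel wall, is not in this list and was higher at 1.17. Among all tested genes 38.3% were higher with TMM and 18% with library totals. With library totals 4 of the 6 were higher, Mrpl47 was not called (0.15) and Mrpl17 was lower (-0.47). Mrpl17 was also not called with upper-quartile factors (0.17), at an adjusted p under 0.01, or without PBS replicate 2 (0.25) or PBS replicate 3 (0.21). All 10 genes of the central protuberance were higher with TMM, from 0.35 for Mrpl55 to 1.65 for Mrps30, with a median of 0.93. With library totals 5 were higher and Mrpl18, Mrpl40, Mrpl46 and Mrpl55 lower, at -0.20 to -0.43. After removal of the length and GC trend 6 were higher and Mrpl55 was lower (-0.31). The call of Mrpl55 was lost without PBS replicate 3 (0.26) or MoS2 replicate 3 (0.23) and at an adjusted p under 0.01, and the calls of Mrpl55 and Mrpl46 with upper-quartile factors or without a filter. The 10 genes include Mrpl58, a peptidyl-tRNA hydrolase that releases stalled chains and is built into the ribosome, at 0.80, or 0.02 and not called with library totals. The 3 Mrps18 paralogs derive from a single bacterial protein and occupy different sites, Mrps18a on the large and the other two on the small subunit. Mrps18a had 40.5, 39.4 and 36.9 CPM with PBS and 73.1, 68.0 and 70.5 CPM with MoS2, a log2 fold change of 0.86. Mrps18b had 22.5, 20.2 and 20.2 CPM with PBS and 33.0, 36.1 and 35.4 CPM with MoS2, a log2 fold change of 0.73. Mrps18c had 14.0, 10.6 and 10.1 CPM with PBS and 21.7, 21.1 and 20.1 CPM with MoS2, a log2 fold change of 0.85. The paralogs lay close together and without overlap between groups on the TMM scale. With library totals their log2 fold changes were 0.08, -0.04 and 0.08 and none was called, and Mrps18c was at -0.03 after removal of the length and GC trend.

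Levels per kilobase of exon allow genes to be compared with each other, although the annotated length counts all isoforms and gives a lower level to genes with long, rarely used exons. With PBS the level ran from 1.94 to 51.7 CPM per kilobase, a ratio of 26.6, with a median of 10.55. With MoS2 the ratio of the highest to the lowest was 30.3 and the median 19.2. The 4 highest with PBS were Mrpl52 at 51.7 ± 12.03, Mrpl12 at 46.4 ± 4.37, Mrpl4 at 40.7 ± 2.13 and Mrpl2 at 38.5 ± 3.22 CPM per kilobase (SD, n = 3). The gap between each of these and the next was smaller than the sum of their SDs. Each is a large-subunit protein. The 4 lowest were Mrps25 at 1.94 ± 0.184, Mrps35 at 2.36 ± 0.166, Mrpl48 at 2.81 ± 0.449 and Mrpl47 at 2.97 ± 0.317 CPM per kilobase (SD, n = 3).

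Of the members with the highest PBS levels per kilobase, Mrpl4 is the homolog of bacterial L4 in the wall of the exit tunnel. It had 109, 111 and 100 CPM with PBS and 238, 234 and 247 CPM with MoS2. All MoS2 libraries were above all PBS libraries, with a log2 fold change of 1.17 ± 0.06 (SE; adjusted p = 9.2e-10, edgeR). Mrpl52, a mitochondria-specific protein, had 59.9, 69.3 and 43.0 CPM with PBS and 120, 109 and 142 CPM with MoS2, a log2 fold change of 1.11 ± 0.14 (SE; adjusted p = 5.2e-06, edgeR). Its PBS libraries had the widest spread of any member, a coefficient of variation of 23.2%. Mrpl2, the homolog of bacterial L2 in the core of the large subunit, had 47.2, 47.2 and 40.7 CPM with PBS and 53.0, 47.6 and 57.3 CPM with MoS2. The highest PBS and the lowest MoS2 library nearly met, and its log2 fold change of 0.23 ± 0.09 (SE; adjusted p = 0.031, edgeR) became -0.55 with library totals and -0.21 after removal of the length and GC trend. The call of Mrpl2 was also lost without PBS replicate 3 (0.14), MoS2 replicate 1 (0.22) or MoS2 replicate 3 (0.17).

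All 4 genes with the lowest PBS levels per kilobase were higher with TMM. Not scaled by length, their mean PBS levels were 12.8 to 22.9 CPM, beside a median of 24.7 CPM over the 77 members. The small-subunit gene Mrps25 had a log2 fold change of 1.41, the large-subunit genes Mrpl48 and Mrpl47 1.09 and 0.92 (0.15 and not called for Mrpl47 with library totals), and the small-subunit gene Mrps35 0.65, which was -0.13 with library totals. The order of levels was largely shared by both groups: across 77 members the log2 levels per kilobase with PBS and with MoS2 had a Pearson r of 0.858 and a Spearman rho of 0.855, where both share gene lengths and the genes are not independent replicates. Mrps2 moved furthest, from rank 28 with PBS to rank 75 with MoS2, and Mrpl10 went from 15 to 44 and Mrps12 from 44 to 72. In the other direction Mrpl35 went from 65 to 41 and Mrpl42 from 51 to 27. The log2 fold change followed neither the PBS level (r = -0.056) nor the exonic length (r = 0.193) nor GC content (r = -0.216) closely across the same 77 genes.

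**Figure D3:**
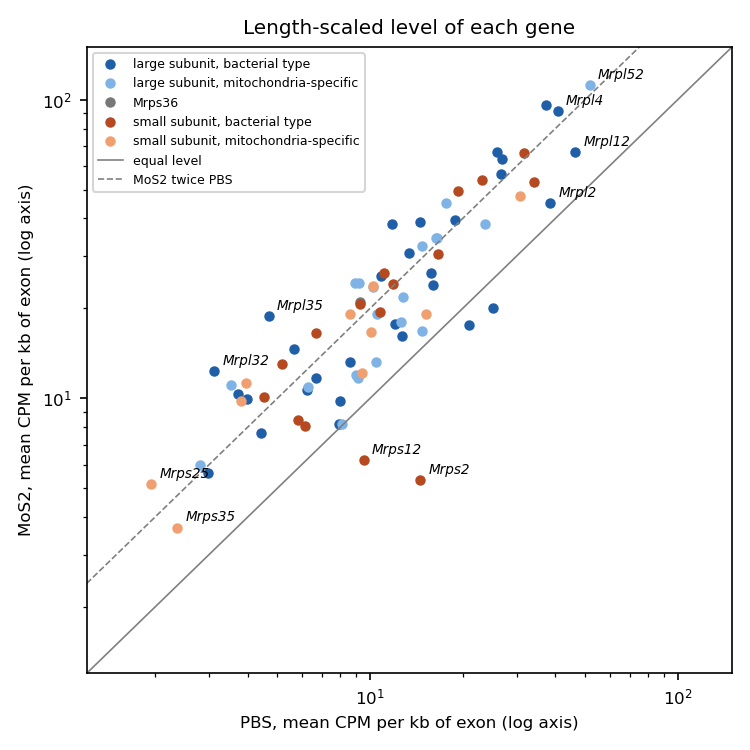
Mean level per kilobase of exon of each of the 77 tested members with PBS (horizontal axis) and with MoS2 (vertical axis), in CPM per kilobase on log axes, with a solid line of equal levels and a dashed line where the MoS2 level is 2 times the PBS level. Most points lie above the line, and Mrps2, with 14.6 ± 0.476 against 5.34 ± 0.609 CPM per kilobase (SD, n = 3), lies furthest under it.

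The members are spread over 17 chromosomes, with 11 on chromosome 11. For 19 of them another protein-coding gene starts on the opposite strand within 1000 bases, so that the same stretch lies before both genes. Starts here are the outermost annotated ones, an overlap of up to 100 bases was allowed, and only the nearest such gene was taken. In 18 of these pairs the neighbour was tested. Both genes rose in 5 pairs, the member rose and the neighbour fell in 8, and the member rose beside a neighbour without a call in 2. In the other 3 pairs Mrpl36 fell beside a rise of Ndufs6, Mrps12 fell beside Sars2 without a call, and Mrpl51 was not called beside a fall of Ncapd2. The median log2 fold change was 0.75 for these members and -0.32 for their neighbours, of which 6 were higher and 9 lower. These are 33.3% and 50% of the neighbours, beside 38.3% and 42.4% of all tested genes. With library totals 7 of the members were higher, 4 not called and 7 lower, and 5 of the neighbours were higher and 13 lower. Both genes of a pair were then higher in 2 pairs and lower in 4.

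The widest split was between Mrps18b and Ppp1r10, which start 45 bases apart. Ppp1r10, a nuclear targeting subunit of protein phosphatase 1, had 57.0, 60.8 and 54.4 CPM with PBS and 2.80, 3.89 and 3.95 CPM with MoS2, a log2 fold change of -4.01 ± 0.12 (SE; adjusted p = 4.2e-12, edgeR), beside 0.73 for Mrps18b. Mrpl37 had a log2 fold change of 1.21, while that of Cyb5rl, 120 bases away, was -2.66. Mrpl32 and Psma2, a proteasome subunit, start 75 bases apart and both rose, at 1.98 and 1.30. Mrpl36 and Ndufs6, a subunit of respiratory complex I, overlap by 29 bases at their outermost annotated starts. The RefSeq start used for the promoter window of Mrpl36 lies 2496 bases from that annotated start. Ndufs6 had 20.4, 24.7 and 17.7 CPM with PBS and 47.5, 42.5 and 52.8 CPM with MoS2, a log2 fold change of 1.19, beside -0.31 for Mrpl36. The stretch printed above for Mrps12 is the one shared with Sars2, a mitochondrial seryl-tRNA synthetase, whose log2 fold change was -0.08. That of Mrpl30 is shared with Mitd1, at 0.49. These values are on the TMM scale.

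**Figure D4:**
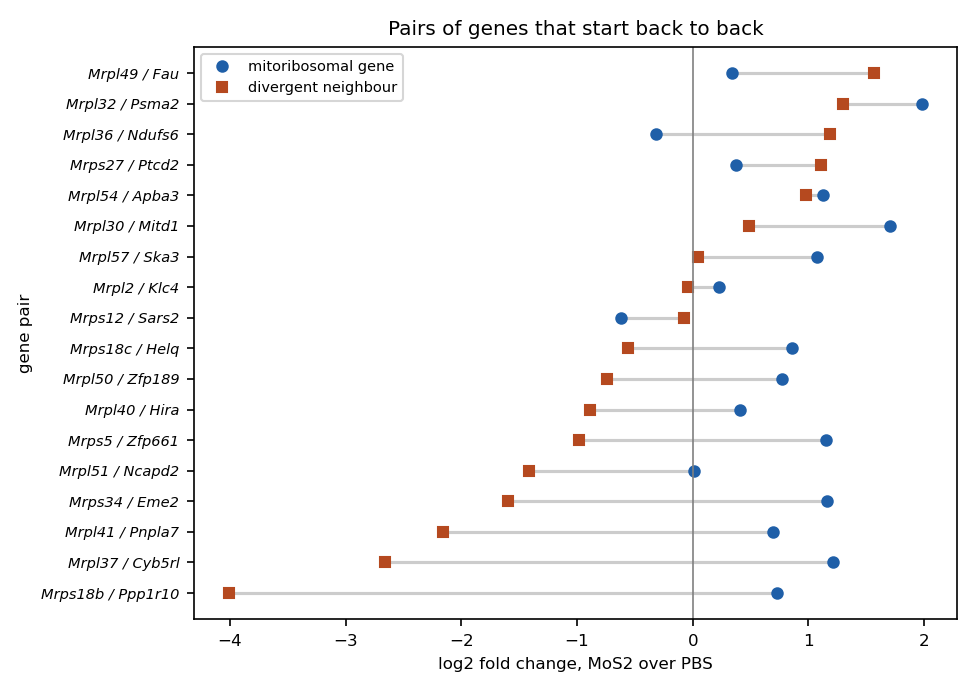
Log2 fold change, MoS2 over PBS with TMM scaling, of the 18 mitochondrial ribosomal protein genes (circles) and the tested genes that start back to back with them (squares), joined by a line and ordered by the neighbour. The squares run from -4.01 (Ppp1r10) to 1.57 (Fau), while the circles stay between -0.62 (Mrps12) and 1.98 (Mrpl32).

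Some of the counts could include reads of another gene, or lack reads that fell on bases shared with another gene. Which of these held for any member was not tested. Exon bases of 32 members are shared with another gene, and for 16 members the shared part is 10% or more of their exons. Among tested members, the largest shares with a gene on the opposite strand were 69.8% for Mrps25 with Nr2c2, 63.4% for Mrps34 with Mapk8ip3, 36.0% for Mrpl19 with Gcfc2 and 33.4% for Mrpl43 with Twnk. On the same strand, Mrps34 shares 37.0% of its exon bases with Nme3, which is listed at 0 in all libraries. The strand setting of the counting is not stated in the sources used here, so reads of such pairs cannot be told apart. Without the 16 members, 62 were tested, 57 were higher and 3 lower. Of 5 processed pseudogenes of the family in the table, Mrpl48-ps had 269 counts and Mrpl23-ps1 102 counts over all 6 libraries, and the others at most 2.

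Another 5 proteins of the mitochondrial ribosome carry other names, and all 5 of their genes were higher. Chchd1, of the small subunit, had 31.3, 26.6 and 25.3 CPM with PBS and 89.8, 87.0 and 99.0 CPM with MoS2, a log2 fold change of 1.73. Dap3, the GTP-binding protein of the small subunit, had a log2 fold change of 1.16, Ptcd3 0.74 and Gadd45gip1 0.43, with a median of 0.89 for the list. With library totals 2 of the 5 were higher and 1 lower. Among all tested genes 38.3% were higher and 42.4% lower with TMM, and 18% and 67.7% with library totals.

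Of 26 genes that help assemble the mitochondrial ribosome, 8 were higher and 11 lower, or 30.8% and 42.3%, with a median log2 fold change of -0.04. These shares are near those of all tested genes, 38.3% and 42.4%, whose median was -0.08. Mettl17 and Mpv17l2, which act in assembly of the ribosome, were higher at 1.004 and 0.90. Nsun4, which methylates the small-subunit rRNA, went from 24.2 ± 0.708 to 7.67 ± 2.12 CPM (SD, n = 3), a log2 fold change of -1.66. Ybey, an endoribonuclease, had 59, 69 and 74 counts with PBS and 1, 3 and 9 counts with MoS2, a log2 fold change of -3.11 that rests on few reads. Of 15 translation factors 14 were tested, and 9 were higher and 4 lower, with a median of 0.45. These are 64.3% and 28.6% of those tested, beside 38.3% and 42.4% of all tested genes. Mrrf, the ribosome recycling factor, was at 1.34 and the elongation factor Gfm1 at 0.92, while the initiation factor Mtif2 was at -0.76 and Taco1, an activator of COX1 translation, at -1.04.

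Of the 17 mitochondrial aminoacyl-tRNA synthetases, which charge the tRNAs the ribosome uses, 4 were higher and 10 lower, with a median of -0.35. These are 23.5% and 58.8%, beside 38.3% and 42.4% of all tested genes. Lars2, for leucine, went from 273 ± 58.9 to 1154 ± 88.9 CPM (SD, n = 3), a log2 fold change of 2.08. Its PBS libraries ran from 217 to 334 CPM, while the next highest synthetase with PBS was Iars2 at 91.8 CPM. Whether reads from other sequences were counted under Lars2 was not tested. Fars2, for phenylalanine, had a log2 fold change of 1.46. Hars2, for histidine, was at -1.67, and Pars2, for proline, had 7.41, 8.21 and 7.77 CPM with PBS and 0.319, 0.324 and 0.658 CPM with MoS2, a log2 fold change of -4.12. With library totals the counts of higher and lower were 1 and 21 for the assembly factors, 1 and 7 for the translation factors, and 2 and 15 for the synthetases. On that scale 18% of all tested genes were higher and 67.7% lower. The products of mitochondrial transcription could not be set beside them: all 37 genes of the mitochondrial chromosome, with 2 rRNAs and 13 mRNAs, are listed at 0 in every library.

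In 2 families whose products work with the mitochondrial ribosome or resemble it, nearly all tested genes were higher with TMM scaling. Of 86 cytosolic ribosomal protein genes 83 were tested, and 82 were higher and 1 lower, with a median log2 fold change of 1.61. Complex I subunits encoded in the nucleus join subunits made by the mitochondrial ribosome. Of 37 genes named for them (Nduf, then a, b, c, s or v and a digit), 36 were higher and 1 lower, with a median of 1.28. These genes were taken by symbol, and whether each encodes a complex I subunit was not checked. With a filter of 1 CPM in 3 libraries, 36 were tested, with 36 higher and 0 lower. With library totals 82 of the cytosolic genes were higher and 1 lower, and 27 of the complex I genes were higher and 2 lower, beside 18% and 67.7% of all tested genes. The medians were then 0.84 and 0.51, beside 0.29 for the mitochondrial ribosomal proteins. The SD of the log2 fold changes among genes was 0.57 for the mitochondrial family and 0.38 for the cytosolic one. No test was made of the difference between these lists.

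**Figure D5:**
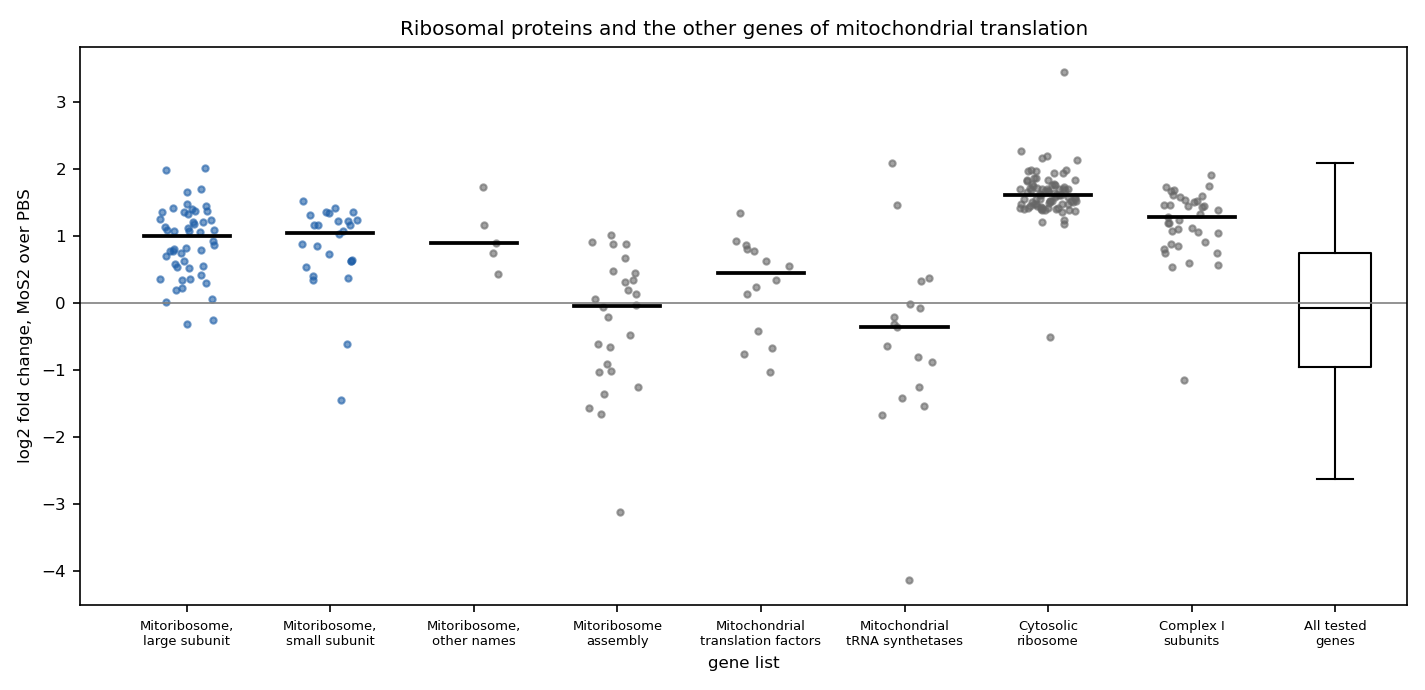
Log2 fold change, MoS2 over PBS with TMM scaling, of each tested gene (points) of the mitochondrial ribosome (blue) and of related lists (grey), with the median of each list as a bar, beside all 12972 tested genes (box of quartiles with the median, whiskers from the 5th to the 95th percentile). The medians are 0.99 and 1.04 for the large and small subunit, -0.04 for assembly factors, 0.45 for translation factors, -0.35 for synthetases, 1.61 for cytosolic ribosomal proteins and 1.28 for complex I. With library totals all points lie about 0.77 lower, and the medians of both subunits stay above 0 at 0.22 and 0.27.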

How the data were processed

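The series holds bulk RNA sequencing of 6 libraries, with TRIzol extraction and a NEBNext Ultra kit per the labels' protocols. The deposited values are raw read counts for each gene, in whole numbers; the submitters' processing notes name fastp 0.20.0, HISAT2 2.1.0 and featureCounts 1.6.1. These notes give the build as GRCh38, a human assembly, yet every one of the 55401 identifiers is a mouse gene, and 54349 match GENCODE M21 on GRCm38 by version and coordinates. The sources used here do not state how strand or reads with several alignments were handled. Columns were matched to samples by their letter (M or c) and number.

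Differences were tested over the whole table with edgeR 4.0.16 (quasi-likelihood F test, TMM factors, the default filter near 10 counts in 3 libraries, Benjamini-Hochberg adjustment; R 4.3.3, limma 3.58.1), called at an adjusted p under 0.05. The procedure was tested on simulated counts in which a small part of the genes changed and composition did not shift. That simulation could not test the choice of scaling for these data. Log2 fold changes use a prior count of 0.125. The SE is the fitted change over the square root of F and is approximate. CPM and CPM per kilobase use TMM-scaled totals, and the precision of each value rests on its counts. Named members were the 6 highest and 6 lowest log2 fold changes, the 4 highest and 4 lowest PBS levels per kilobase, all that were not called, the 5 stalk proteins and the 3 Mrps18 paralogs; related lists give up to 2 at each end, and divergent neighbours, members with shared exons, rank changes and promoters to print were picked after their values were seen. The members, lists and tests were chosen with earlier results of these data known. Alternatives were other scalings, filters, tools (DESeq2 1.42.0, limma-voom), an adjusted p under 0.01, a term for the replicate number, protein-coding genes alone, removal of a length and GC trend, leaving out each library and, added after seeing the data, leaving out members with shared exons.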

Additional observations from a re-analysis of the deposited data

How the results depend on the processing

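Over all settings, 40 members were higher in every one, 55 in every one except library totals, and 2 were lower in every one. The matching counts over all tested genes are not given here, so these counts have no background share. In the main fit alone 38.3% of all tested genes were higher and 42.4% lower. With library totals, 40 members were higher and 21 lower, with a median log2 fold change of 0.29, beside 18% and 67.7% of all tested genes called higher and lower. The higher and lower counts were then 15 and 9 (large subunit, bacterial type), 10 and 6 (large subunit, mitochondria-specific), 9 and 4 (small subunit, bacterial type), 5 and 2 (small subunit, mitochondria-specific), 2 and 1 (other names), 1 and 21 (assembly), 1 and 7 (translation factors), and 2 synthetases were higher. The same scaling turned 24 members from positive to negative, among them Mrpl17 (-0.47), Mrpl55 (-0.43), Mrps27 (-0.40), Mrpl3 (-0.72), Mrpl51 (-0.76), Mrpl12 (-0.25), Mrpl2 (-0.55), Mrps35 (-0.13), Mrpl43 (-0.58) and Mrps18b (-0.044); by its construction it leaves out the composition factors. Removing the length and GC trend left 7 lower members, 4 of them in the large subunit of bacterial type and 1 in its mitochondria-specific group, with a median of 0.70, and turned 8 members negative, among them Mrpl55 (-0.31), Mrpl2 (-0.21), Mrpl43 (-0.26) and Mrps18c (-0.029); the cause was not tested. The median was 0.93 with upper-quartile factors and 0.98 without a filter. At an adjusted p under 0.01, 2 members were lower and 0 of the bacterial-type large subunit. Mrpl36 and Mrpl10 missed that threshold, with adjusted p of 0.011 and 0.016 in the same edgeR fit. DESeq2 called 1 of the bacterial-type large subunit lower and did not call Mrpl10. Leaving out each library in turn gave 66 to 71 higher and 2 to 4 lower members, 0 to 2 lower in the bacterial-type large subunit, and medians of 0.95 to 1.07. Without PBS replicate 1, for example, 38.0% of all tested genes were higher and 41.7% lower.

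Deviations of libraries of the same number from their group means had r of -0.0203, -0.0107 and -0.138 for numbers 1 to 3. Pairs of different number had r from -0.119 to 0.151. With 3 libraries a group these values cannot settle whether equal numbers share a batch, and the labels do not say. A replicate block gave 70 higher and 4 lower members. A planned permutation test of the mitochondrially encoded share of counts could not be made, since those genes are all listed at 0. Between replicates of a group the chi-square per degree of freedom over genes was 3.16 to 13.8, so the libraries differed by more than counting error.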
